A study of Mus musculus with 20 samples.

Results

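The genes described here encode the TGF-beta, BMP, GDF and activin signalling system, from secreted ligands to the nuclear targets. The 49 members were chosen by gene symbol from a list, and all 49 were found among the 14793 genes of the table. They comprise 4 genes for TGF-beta ligands and the TGF-beta-induced protein Tgfbi, 3 TGF-beta receptors, 11 BMP and GDF ligands, the procollagen C-proteinase Bmp1, 2 activin subunits, 8 BMP and activin receptors, 6 receptor-regulated or common Smads, 3 genes for inhibitory Smads and the decoy receptor Bambi, 7 extracellular antagonists and 4 Id genes.

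Expression was measured by bulk RNA sequencing of polyA RNA from the knee joints of 20 mice, 5 per group. Male C57BL/6Nci mice, 12 weeks old, all had surgical destabilization of the medial meniscus (DMM) of the right knee, which brings on osteoarthritis, so the set holds no joint without surgery. The control group had needle insertion alone, with no cells and no injected saline. A comparison with it therefore cannot tell the cells from the injected volume. The MSC group was injected with 250000 adipose-derived mesenchymal stromal cells in 10 µL of saline at weeks 3 and 5 after surgery. In the TLR3-MSC group the cells had been exposed for 2 h to 10 µg/mL of polyinosinic:polycytidylic acid (pIC), an agonist of Toll-like receptor 3, and in the STING-MSC group to 2′3′ cGAMP, the natural ligand of STING, at the same dose and time. The cells were a pool from male donors of the same strain and age as the hosts, so reads of injected and host cells cannot be told apart. The time of collection is given as week 8 in one place and as 24 h after an injection in another. The tissue was the whole joint, with cartilage, synovium, capsule and subchondral bone together, and the design cannot tell fewer cells of a type from less RNA per cell.

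In this signalling system a dimeric ligand brings together type I and type II receptor kinases, and the type I receptor then phosphorylates a receptor-regulated Smad. TGF-beta and activin act mainly through Smad2 and Smad3, and BMPs and some GDFs through Smad1, Smad5 and Smad9. Both branches share Smad4, and each is held back by inhibitory Smads, decoy receptors and secreted antagonists. Smad7 acts on both branches. Smad6, noggin, gremlin and chordin act mainly on the BMP branch, and follistatin mainly on activin. In joints the pathway is known for the formation and upkeep of cartilage, for bone formation, and for synovial fibrosis and osteophyte growth in osteoarthritis.

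The values are normalized counts, that is, reads per gene divided by a size factor per joint. Recovered reads per joint ran from 27955496 to 52529972. MSC replicate 5 had 296 genes at 0 where the other joints had between 0 and 97, and TLR3-MSC replicate 4 had a summed count of epidermal markers of 25470, which was 10.5 times the mean of the 20 joints. Markers of cartilage, synovium, bone and skeletal muscle were above 0 in every joint. Differences were tested with limma on log2(normalized count + 1) in a single fit of 4 groups, with false discovery rates (FDR, Benjamini-Hochberg) over all 14793 genes. A member was called where its unadjusted p was at most 0.05. No member had an FDR of at most 0.05 in limma in any comparison, so every call below rests on an unadjusted p. Of all genes, 0.00676% had such an FDR in MSC against control joints and 0.0% in each other comparison. An exact two-sided permutation test over the joints is given beside the calls. All 49 members passed the minimum mean normalized count of 5, which removed 0 genes.

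Levels were compared between genes only per length, on a TPM-like scale that divides the normalized count by the exon length and by the sum over all genes with a length. On this scale Tgfbi, a secreted matrix protein induced by TGF-beta, was the highest member at 346, followed by Tgfb1 at 174, Id3 at 156, the secreted glycoprotein Fstl1 at 147 and Tgfbr2 at 95.7. Gdf5, a ligand of joint formation, was the lowest at 0.963, below the type II receptor Acvr2b at 1.46 and Gdf6 at 1.81. Among the TGF-beta ligands, Tgfb3 (39.5) and Tgfb2 (14.8) were below Tgfb1 on the same scale.

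The members varied more between joints of the same group than most genes did. The median within-group SD of the log2 values was 0.389 over the members and 0.26 over all genes, and 36 of the 49 members lay above the median of all genes. The 7 members among the 10% of all genes with the largest SD were Gdf5 (SD 1.44), Gdf6 (1.33), the BMP receptor Bmpr1b (0.868), the activin subunit Inhbb (0.814), Fstl1 (0.797), Bmp1 (0.769) and the activin subunit Inhba (0.732). The steadiest members were Smad2, the TGF-beta and activin effector, with an SD of 0.106, and the endothelial receptor Acvrl1, with 0.133. The extremes fell on the same joints for many members. Control replicate 4 was the highest of the 20 joints for 14 members, MSC replicate 2 for 8 and control replicate 3 for 7, whereas STING-MSC replicate 5 was the lowest for 13, MSC replicate 4 for 10 and MSC replicate 5 for 7.

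**Figure D1:**
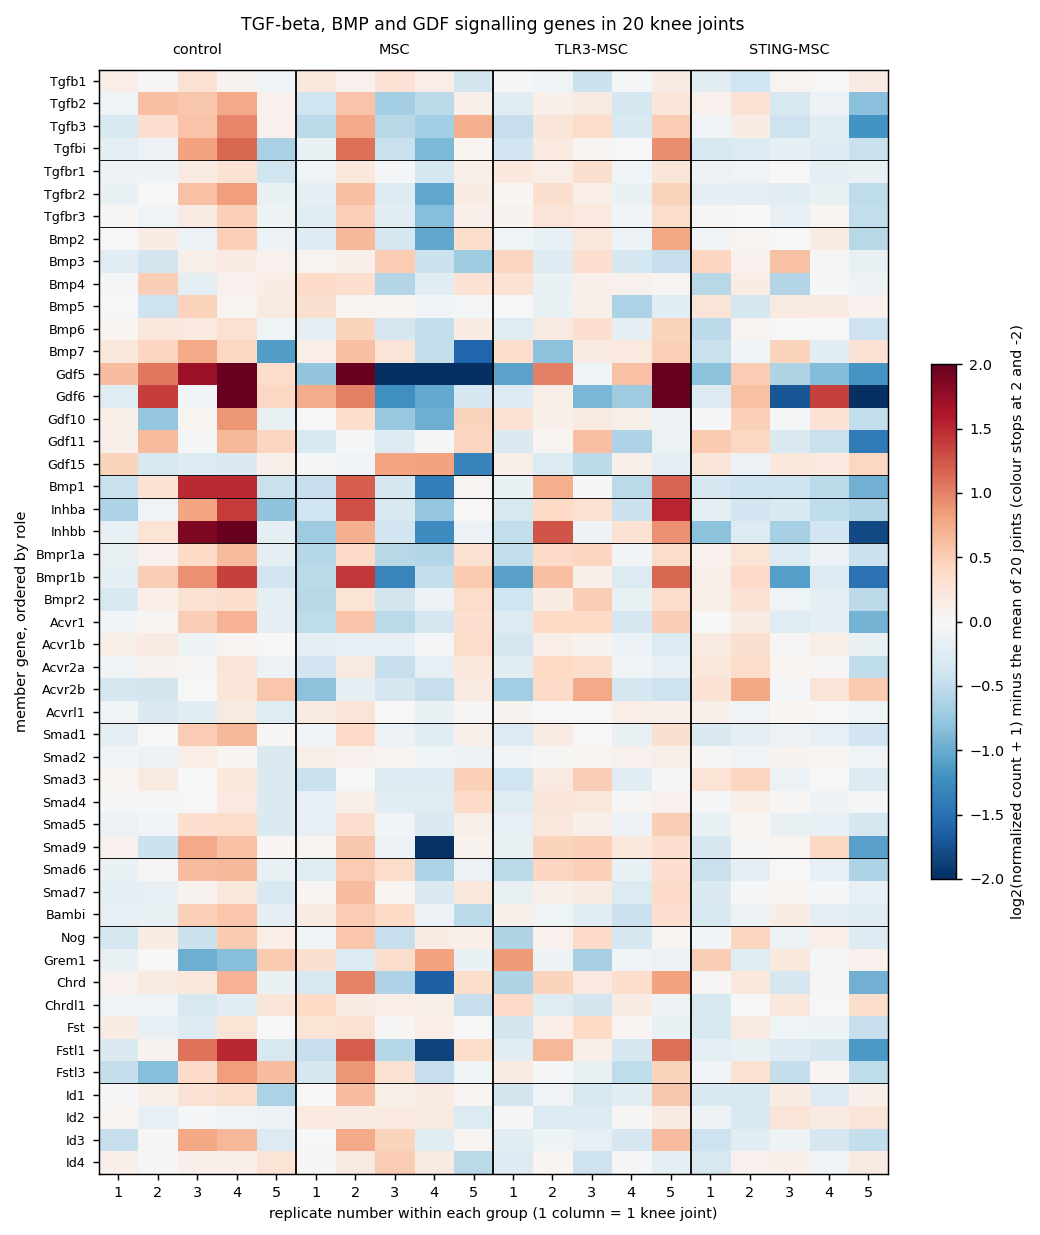
Heat map of the 49 members (rows, ordered by role) in the 20 joints (columns, by group and replicate number). Colour gives log2(normalized count + 1) minus the gene's mean over the 20 joints, with the scale stopping at 2 and -2. Control replicates 3 and 4, MSC replicate 2 and TLR3-MSC replicate 5 are red across many rows, and STING-MSC replicate 5 and MSC replicate 4 are blue.

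The comparison of STING-MSC with control joints sets cells primed with the STING ligand, in saline, against needle insertion alone. Priming, the cells and the injected volume cannot be told apart in it. Of the 49 members, 6 passed an unadjusted p of 0.05, or 12.2% of them, and the same share of all genes, 12.2%, did so. All 6 were lower in STING-MSC joints, where 5.69% of all genes were called lower, and none was called higher. They were Inhbb, Smad1, Tgfb2, Bmp1, Gdf5 and Tgfb3, and the exact test was at or below 0.05 for Inhbb, Smad1 and Gdf5. With a change of at least 2-fold as well, 3 members were called (2.06% of all genes). The median log2 difference over the members was -0.197 against 0.00778 over all genes. The estimate lay below 0 for 35 members, 71.4% of them, against 48.3% of all genes.

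Inhbb encodes the beta-B subunit, which pairs with itself to form activin B and with the alpha subunit to form inhibin B. Its normalized counts were 376, 512, 1551, 1775 and 374 in the control joints, 259, 695, 323, 177 and 392 in the MSC joints, 299, 1014, 394, 516 and 799 in the TLR3-MSC joints, and 239, 350, 267, 324 and 119.9 in the STING-MSC joints. Every STING-MSC joint was below every control joint, and control replicates 3 and 4 stood far above the other control joints. The means were 917 ± 687 in control, 604 ± 296 in TLR3-MSC, 369 ± 198 in MSC and 260 ± 89.8 in STING-MSC joints (SD, n = 5 each). Neighbours in that order did not differ beyond their spread, with an unadjusted limma p of 0.413, 0.149 and 0.366 from the top down. STING-MSC and control joints differed by -1.56 on the log2 scale (SE 0.48, unadjusted limma p = 0.00407, FDR 0.291, exact permutation p = 0.00794). This exact p is the smallest that 5 against 5 joints allow. The groups did not overlap for 2.17% of all genes in this comparison. In DESeq2 on the recovered whole reads Inhbb was the only member with an FDR of at most 0.05 (0.0308), 1 of 85 genes with such an FDR there, and in edgeR no member was (smallest FDR 0.283). Without control replicate 4 the difference was -1.24 with an unadjusted limma p of 0.0162, and without control replicate 3 it was -1.29 with one of 0.0159.

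The stretch upstream of Inhbb is shown because Inhbb carries the difference with the smallest p, beside that of Inhba, the other activin subunit, which was not called in any comparison. Both are reference sequences from RefSeq, placed by exact match on GRCm39 and cut where an annotated exon begins, and they read in the direction of the gene. Inhbb lies at chr1:119343195-119349979 on the minus strand (ENSMUSG00000037035) and Inhba at chr13:16186436-16206207 on the plus strand (ENSMUSG00000041324). Capitals mark the GC box, searched as GGGCGG on both strands.
Inhbb upstream, chr1:119350022-119350228, minus strand: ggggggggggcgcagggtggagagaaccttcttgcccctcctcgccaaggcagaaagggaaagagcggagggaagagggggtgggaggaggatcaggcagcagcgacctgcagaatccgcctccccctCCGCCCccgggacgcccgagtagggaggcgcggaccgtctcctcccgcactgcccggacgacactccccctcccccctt
Inhba upstream, chr13:16186186-16186372, plus strand: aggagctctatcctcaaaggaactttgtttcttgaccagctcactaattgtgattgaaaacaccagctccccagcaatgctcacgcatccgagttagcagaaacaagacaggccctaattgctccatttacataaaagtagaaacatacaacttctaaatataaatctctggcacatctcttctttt

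The Inhbb stretch of 207 bases had a GC content of 71.0% and the Inhba stretch of 187 bases one of 40.1%. The GC box was found once in the Inhbb stretch, and 26.0% of the 32851 RefSeq promoter windows, cut to the same length, hold it. It was absent from the Inhba stretch, where 22.2% of windows of that length hold it. The Smad-binding sequence CAGAC, held by 36.8% and 34.2% of the windows at these lengths, was found in neither stretch, and neither was GGCGCC, a BMP-type Smad sequence held by 7.51% and 6.49%. These are matches of letters only. A window was given for 32 of the 49 members.

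Inhba, the beta-A subunit of activin A, measured 1237, 1806, 3300, 5026 and 1093 in the control joints and 1685, 1464, 1537, 1339 and 1270 in the STING-MSC joints. All 5 STING-MSC values lay inside the control range. The difference was -0.53 on the log2 scale (SE 0.43, unadjusted limma p = 0.232, exact permutation p = 0.325). In MSC joints Inhba was 1438, 4675, 1539, 1111 and 1888, and in TLR3-MSC joints 1525, 2520, 2350, 1411 and 5457, so 1 joint in each group came near or above the control maximum.

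**Figure D2:**
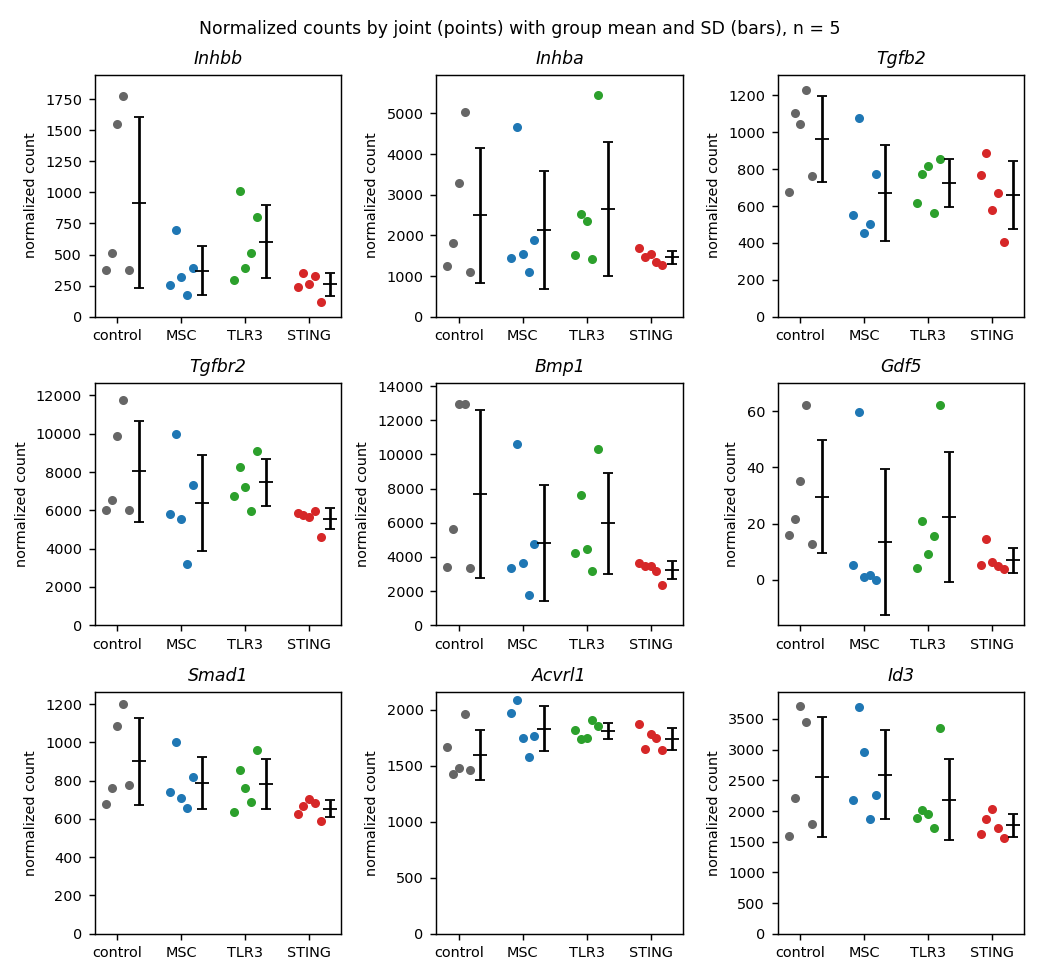
Normalized counts (vertical axes) of 9 members in the 4 groups, 1 point per joint, with the group mean and SD (n = 5) as a bar beside the points. TLR3 and STING stand for the TLR3-MSC and STING-MSC groups. For Inhbb the 5 STING-MSC joints lie between 119.9 and 350, below the lowest control joint at 374, and for Tgfbr2 between 4627 and 5970, below the lowest control joint at 6002.

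Tgfb2 and Tgfb3 encode TGF-beta isoforms that are stored in the matrix in latent form. Tgfb2 measured 678, 1102, 1047, 1227 and 764 in control joints and 767, 887, 577, 668 and 405 in STING-MSC joints. The upper 3 control joints exceeded every STING-MSC joint, and the other two lay within their range. The difference was -0.56 (SE 0.24, unadjusted limma p = 0.0323, FDR 0.38, exact permutation p = 0.0556), and leaving out control replicate 2, 3 or 4 or STING-MSC replicate 3 or 5 moved the limma p to between 0.0624 and 0.112. Tgfb3 measured 1268, 1973, 2331, 3087 and 1664 in control joints and 1499, 1733, 1170, 1353 and 685 in STING-MSC joints, so the groups overlapped and replicate 5 was the lowest. The Tgfb3 difference was -0.68 (SE 0.32, unadjusted limma p = 0.0489, exact permutation p = 0.0635), and the limma p passed 0.05 without control replicate 2, 3 or 4 or without STING-MSC replicate 3, 4 or 5 (0.0574 to 0.158). Tgfb3 overlaps Ttll5 on the other strand, and without known use of strand their reads cannot be told apart. The same limit holds for Bmp6 (with Txndc5), Gdf11 (Sarnp), Acvr2a (Orc4), Chrd (Thpo) and Fstl3 (Prss57). Tgfb1, the most abundant isoform per length, ranged from 6743 to 8892 in control joints and from 5415 to 8000 in STING-MSC joints, and the interval of its difference, -0.44 to 0.11, held no 2-fold change.

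The type II receptor Tgfbr2, which binds TGF-beta first, showed complete separation without a call in the main fit. Under 5 of 19 alternatives of processing or of joints left out, its difference from control did gain a call. That from TLR3-MSC gained one under 0 of 19. It measured 6010, 6543, 9883, 11750 and 6002 in control joints, 6765, 8242, 7232, 5980 and 9095 in TLR3-MSC joints, and 5838, 5733, 5655, 5970 and 4627 in STING-MSC joints. Each STING-MSC joint was below each control joint and each TLR3-MSC joint, but the highest STING-MSC joint and the lowest joints of both other groups differed by little. The difference from control was -0.48 (SE 0.24, unadjusted limma p = 0.0588) and that from TLR3-MSC was -0.41 (p = 0.0979), with an exact permutation p of 0.00794 in both. Groups did not overlap for 2.17% of all genes in the former comparison and for 1.35% in the latter. MSC joints, at 5822, 10010, 5530, 3222 and 7320, lay on both sides of the STING-MSC joints.

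Smad1, a receptor-regulated Smad of the BMP branch, measured 680, 762, 1088, 1201 and 775 in control joints and 626, 669, 703, 681 and 590 in STING-MSC joints. Control replicates 2 to 5 exceeded all STING-MSC joints and control replicate 1 fell within their range. The difference was -0.43 (SE 0.15, unadjusted limma p = 0.0113, FDR 0.33) and the exact permutation p was 0.0238. The other Smads were not called. Smad2, Smad3 and Smad4 gave differences of 0.07, 0.04 and 0.02, each with an interval inside a 2-fold change. The inhibitory Smad6, a target and brake of the BMP branch, came closest among the uncalled members of this layer at -0.49 (SE 0.24, unadjusted limma p = 0.0519, exact permutation p = 0.0397). Smad7, the other inhibitory Smad, was at -0.02 (SE 0.15), and its sign turned under quantile normalization (0.0009) and without single joints.

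Bmp1 is a secreted metalloprotease that trims procollagens and cleaves chordin, and is no ligand despite its name. It measured 3394, 5621, 12970, 12960 and 3371 in control joints and 3660, 3466, 3472, 3155 and 2355 in STING-MSC joints. The control joints split into high and low values, and the STING-MSC joints lay between 2355 and 3660, near or below the low ones. The difference was -1.01 (SE 0.45, unadjusted limma p = 0.0373, exact permutation p = 0.0873), with a limma p between 0.0557 and 0.116 without control replicate 3 or 4 or STING-MSC replicate 4 or 5. Gdf5 measured 15.9, 21.8, 35.2, 62.1 and 12.9 in control joints and 5.25, 14.7, 6.26, 5.0 and 3.84 in STING-MSC joints. Only STING-MSC replicate 2 reached the control range. The difference was -1.84 (SE 0.86, unadjusted limma p = 0.0459, exact permutation p = 0.0159), and the limma p was 0.0578 at a pseudocount of 0.5 and between 0.0596 and 0.113 without control replicate 2, 3 or 4 or STING-MSC replicate 1, 3, 4 or 5.

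Apart from Gdf5, none of the ligands and antagonists named for their role was called in this comparison. The osteogenic ligand Bmp2 was at -0.17 (SE 0.25) and Bmp4 at -0.33 (SE 0.19). Gremlin (Grem1), a BMP antagonist of joint tissue, had the highest estimate of all members at 0.39 (SE 0.29), noggin (Nog) was at 0.03 (SE 0.22) and chordin (Chrd) at -0.41 (SE 0.37). The Nog estimate changed sign in both count tests and without single joints. The BMP type I receptor Bmpr1a was at -0.25 (SE 0.23), and Id1, the classical transcriptional target of BMP signalling, at -0.14 (SE 0.19). For 36 of the 49 members the 95% interval of the difference lay within a 2-fold change in either direction, and for the others it reached beyond 2-fold.

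**Figure D3:**
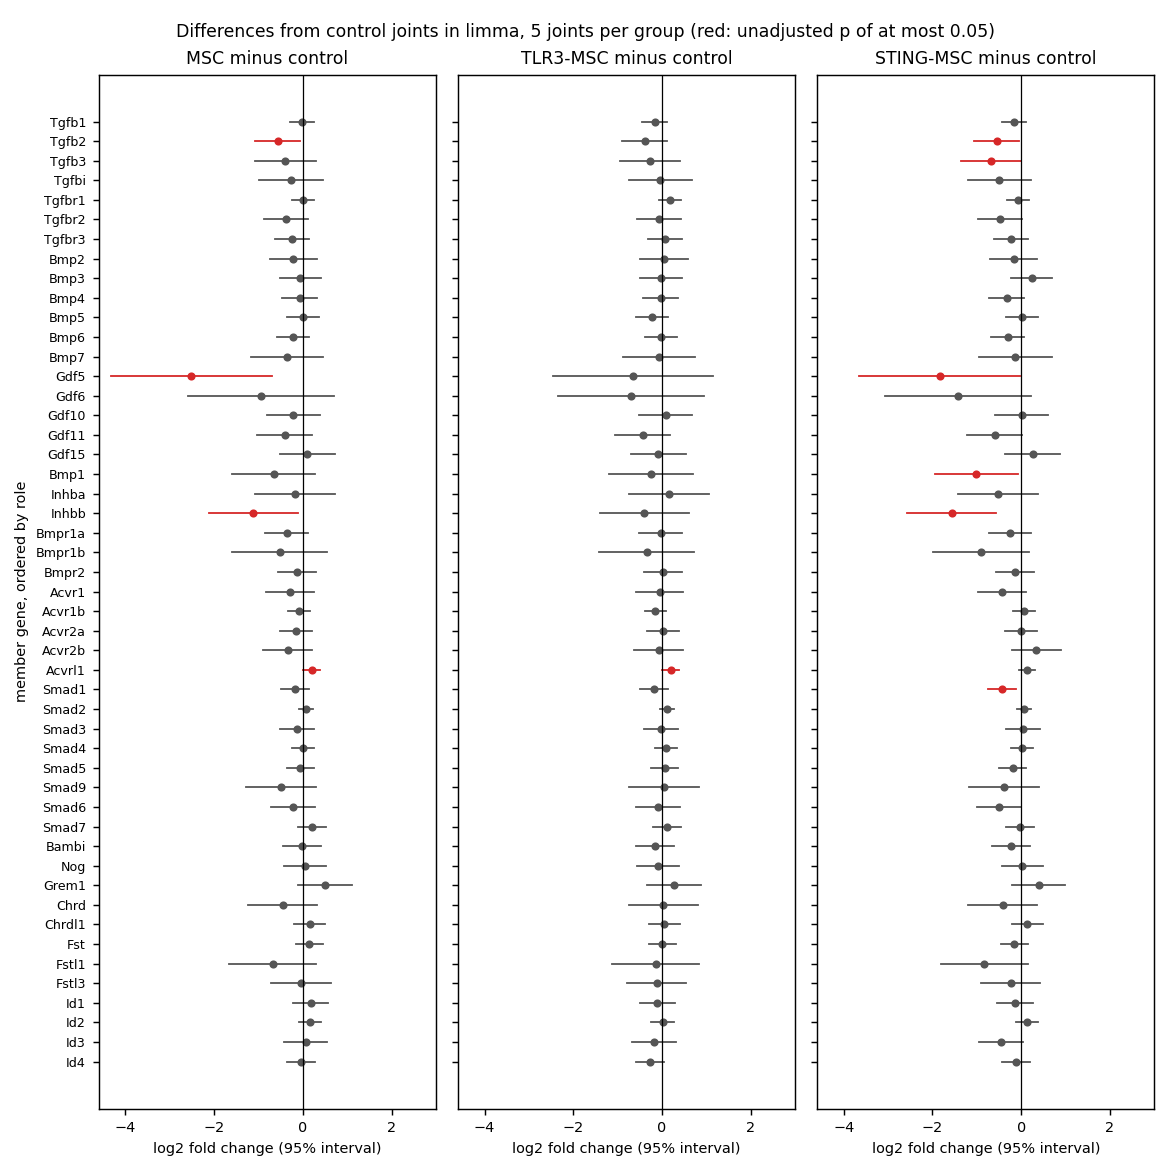
Log2 differences (horizontal axes) of the 49 members from control joints in MSC, TLR3-MSC and STING-MSC joints, with 95% intervals from limma. Red marks an unadjusted p of at most 0.05, which holds for 4, 1 and 6 members. The 5 control joints are shared by the 3 panels.

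The comparison of unprimed MSC with control joints gave 4 called members, where 8.55% of all genes were called. Gdf5, Inhbb and Tgfb2 were lower (2.91% of all genes were called lower) and Acvrl1 was higher (5.64%). None of the 4 had an exact permutation p of at most 0.05. With a change of at least 2-fold as well, 2 members were called (0.73% of all genes). Gdf5 measured 5.36, 59.8, 0.995, 1.65 and 0 in the MSC joints, so that replicate 2 was close to the control maximum of 62.1 while the other 4 joints were below every control joint. Its difference was -2.51 (SE 0.86, unadjusted limma p = 0.00901, FDR 0.354, exact permutation p = 0.0635). On whole reads edgeR gave -1.10 with an unadjusted p of 0.239 and DESeq2 -1.12 with one of 0.237. Inhbb differed by -1.12 (SE 0.48, unadjusted limma p = 0.0302, exact permutation p = 0.111), with a limma p of 0.0618 to 0.105 without control replicate 3 or 4 or MSC replicate 1 or 4. Tgfb2, at 551, 1076, 452, 501 and 774 in MSC joints, differed by -0.56 (SE 0.24, unadjusted limma p = 0.0306, exact permutation p = 0.103) and lost its call without control replicate 2, 3 or 4 or MSC replicate 1, 3 or 4 (p 0.0602 to 0.0924). MSC, TLR3-MSC and STING-MSC joints were all compared with the same 5 control joints, so these differences are not independent of those above.

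Acvrl1, a type I receptor for BMP9 and BMP10 found mainly on endothelium, was the sole member called higher in MSC joints and the sole member called in TLR3-MSC joints, where 3.58% of all genes were called. It measured 1668, 1423, 1479, 1961 and 1466 in control joints, 1972, 2087, 1746, 1578 and 1763 in MSC joints, and 1821, 1740, 1745, 1904 and 1859 in TLR3-MSC joints. Control replicate 4 lay above all TLR3-MSC joints and the other 4 control joints below all of them. The differences were 0.20 in MSC joints (SE 0.09, unadjusted limma p = 0.0362) and 0.19 in TLR3-MSC joints (SE 0.09, p = 0.0419, FDR 1.0), and the exact permutation p was 0.119 and 0.0873. The MSC call was lost without control replicate 2, 3 or 5 or MSC replicate 1 or 2 (p 0.0841 to 0.112), and the TLR3-MSC call without control replicate 2, 3 or 5 or TLR3-MSC replicate 1, 4 or 5 (p 0.0615 to 0.115). Of 7 endothelial markers, none was called in MSC joints and 1 was called lower in TLR3-MSC joints. No member was called with a change of at least 2-fold in TLR3-MSC joints (0.331% of all genes). In TLR3-MSC joints 41 of the 49 intervals lay within a 2-fold change, and the median difference was -0.0554 against -0.00684 over all genes.

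Comparisons among the 3 cell treatments ask whether priming changed what the cells did. TLR3-MSC against MSC joints gave 1 called member against 3.88% of all genes, Gdf5, at 4.21, 21.0, 9.38, 15.5 and 62.2 in TLR3-MSC joints. The call held with a change of at least 2-fold, as for 0.399% of all genes. Both groups held 1 joint near 60 and otherwise low values, the difference was 1.85 (SE 0.86, unadjusted limma p = 0.045, exact permutation p = 0.167), and the unadjusted p was 0.449 in edgeR and 0.447 in DESeq2. Leaving out MSC replicate 3, 4 or 5 or TLR3-MSC replicate 2, 4 or 5 ended the call (p 0.0644 to 0.142). With MSC replicate 5 and TLR3-MSC replicate 4 both left out, 5 members were called in this comparison, against 7.3% of all genes.

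STING-MSC against MSC joints gave 2 called members against 4.94% of all genes, and none with a change of at least 2-fold (0.507% of all genes). Acvr2b, a type II receptor for activins and myostatin, measured 72.4, 113, 102, 92.3 and 146 in MSC joints and 156, 219, 125, 154 and 184 in STING-MSC joints. Only STING-MSC replicate 3 fell within the MSC range, and the difference was 0.68 (SE 0.26, unadjusted limma p = 0.0183, FDR 0.92, exact permutation p = 0.0159). The call was lost without MSC replicate 1 (0.56, limma p 0.0563) or STING-MSC replicate 2 (0.58, limma p 0.0521). Id3, a BMP target that blocks basic helix-loop-helix factors, measured 2177, 3687, 2966, 1876 and 2266 in MSC joints and 1627, 1874, 2039, 1719 and 1565 in STING-MSC joints. Only STING-MSC replicate 3 exceeded the lowest MSC joint. The difference was -0.52 (SE 0.23, unadjusted limma p = 0.0386, exact permutation p = 0.0159), and p was 0.0602 to 0.121 without MSC replicate 2 or 3 or STING-MSC replicate 1, 4 or 5. The other 3 Id genes were not called in this or any other comparison.

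STING-MSC against TLR3-MSC joints gave 2 called members, both lower in STING-MSC joints, against 2.57% of all genes called and 1.78% called lower. Of the 2 only Inhbb changed by at least 2-fold (0.622% of all genes). Inhbb differed by -1.16 (SE 0.48, unadjusted limma p = 0.0252, exact permutation p = 0.0238), and TLR3-MSC replicates 2 to 5 exceeded every STING-MSC joint. Without TLR3-MSC replicate 2 or 5 or STING-MSC replicate 5 its p was 0.0604 to 0.0798. Tgfbr1, the type I receptor kinase for TGF-beta, measured 3470, 3275, 3734, 2817 and 3538 in TLR3-MSC joints and 2777, 2863, 2981, 2639 and 2706 in STING-MSC joints. TLR3-MSC replicate 4 alone fell among the STING-MSC joints. The Tgfbr1 difference was -0.26 (SE 0.12, unadjusted limma p = 0.038, exact permutation p = 0.0238), and p was 0.0577 to 0.0906 without TLR3-MSC replicate 1, 3 or 5 or STING-MSC replicate 1, 4 or 5. An F test over the 4 groups called 2 members, Inhbb (unadjusted limma p 0.0177) and Gdf5 (0.0374), against 6.42% of all genes.

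The layers of the pathway were counted in STING-MSC against control joints, where 5.69% of all genes were called lower. Of the 4 genes for TGF-beta ligands and Tgfbi, all had a lower estimate and 2 were called (median -0.525). The 3 TGF-beta receptors had lower estimates and none was called (median -0.224). Of 11 BMP and GDF ligands 7 had a lower estimate and 1 was called (median -0.167). Both activin subunits had a lower estimate and 1 was called (median -1.05), and so was Bmp1, the sole procollagen C-proteinase of the list (-1.01). The 3 inhibitory Smads and decoy receptor had lower estimates with no call (median -0.235). The 8 BMP and activin receptors stood at a median of -0.07 with no call, the 6 receptor-regulated and common Smads at -0.0877 with 1 call, the 7 antagonists at -0.157 with none, and the 4 Id genes at -0.126 with none. These counts describe the layers, and no difference between layers was tested.

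Other genes of the same system were taken from a list of 94, of which 75 were in the table. In STING-MSC against control joints 18 of the 75 were called lower and none higher, or 24% against 12.2% of all genes called and 5.69% called lower, and none had an FDR of at most 0.05. Of 18 known targets of the pathway 8 were called lower. Ccn1, a matricellular protein induced by TGF-beta, had a mean of 1010 against 2780 in control joints (-1.40, SE 0.36, unadjusted limma p 0.000896, FDR 0.274). Periostin (Postn), a matrix protein of fibroblasts, had 3410 against 12800 (-1.62, SE 0.50, limma p 0.00444). Neither call was particular to STING-MSC joints. Against the same control joints Postn was also called lower in MSC joints (mean 4230, -1.44, limma p 0.00964) and TLR3-MSC joints (5330, -1.12, limma p 0.0373). Ccn1 was also called lower in TLR3-MSC joints (1450, -0.92, limma p 0.0178), and in STING-MSC against MSC joints (1010 against 2090, -1.07, limma p 0.00723). Inha, the alpha subunit that pairs with Inhbb to form inhibin B, was 44.9 against 91.9 (-1.19, SE 0.34, limma p 0.00261). Pcolce, which enhances the procollagen cleavage done by Bmp1, was 4910 against 11400 (-1.08, SE 0.49, limma p 0.0396). Of 12 genes for the latent complex and its activation 3 were called lower, of 8 further receptors and co-receptors 3, of 10 further antagonists 3 and of 10 further ligands and processing genes 2. Ltbp2, a latent TGF-beta binding protein, stands in the lists of the latent complex and of the known targets and is counted in both. None of the 18 intracellular regulators was called. In the other comparisons fewer of the 75 were called. MSC against control gave 1 higher and 5 lower, 8.0% of them against 8.55% of all genes, and TLR3-MSC against control 2 and 2, 5.33% against 3.58%. TLR3-MSC against MSC gave 2 and 1 (4.0% against 3.88%), STING-MSC against MSC 3 and 6 (12.0% against 4.94%), and STING-MSC against TLR3-MSC 0 and 3 (4.0% against 2.57%).

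Markers of several cell types of the joint were summed per joint and set beside the members. The summed normalized count of 8 markers of synovial lining and joint fibroblasts ran from 174200 to 589300 in control joints, from 24720 to 480700 in MSC joints, from 228300 to 445300 in TLR3-MSC joints and from 53340 to 227000 in STING-MSC joints. The lowest joints were MSC replicate 4 (24720) and STING-MSC replicate 5 (53340), the joints with the largest numbers of members at their minimum, and the highest was control replicate 4 (589300). None of these 8 markers was called in STING-MSC against control joints, where their median difference was -0.696. The 9 bone markers summed to between 150800 and 547400 in control joints, between 142600 and 409500 in MSC joints, between 82290 and 317300 in TLR3-MSC joints and between 114500 and 223000 in STING-MSC joints, with control replicates 3 and 4 highest and none called. The median difference of the 9 bone markers in STING-MSC against control joints was only -0.0842. Col1a1 is among these markers and also in the list of known targets, and abundant markers weigh most in a sum. The 9 cartilage markers ran from 27360 to 160600 in control joints and from 29450 to 76430 in STING-MSC joints, with none called. Of 7 endothelial markers 5 were called lower in STING-MSC joints, where 5.69% of all genes were called lower. Their median difference was -0.483, with sums of 12370 to 16900 against 15130 to 20700 in control joints. Of 8 markers of neutrophils and marrow myeloid cells 6 were called higher in STING-MSC joints (sums of 553300 to 860300 against 387200 to 692300), where 12.2% of all genes were called in either direction. In MSC joints 5 of the 8 were called higher (551700 to 944600), against 5.64% of all genes called higher. No marker of these lists was at 0 in any joint. Their part in the differences of the members was not tested.

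The relation of each member to each of 12 marker sums was computed over the 20 joints after subtracting group means, giving 588 relations with Benjamini-Hochberg adjustment and 100000 permutations within groups. A correlation of at least 0.6, a limit chosen with the values known, was reached with the fibroblast sum by 23 members (46.9%, against 17.7% of all genes), with the bone sum by 17 (34.7% against 13.6%) and with the cartilage sum by 13 (26.5% against 11.9%). It was reached with the Schwann cell sum by 15 (30.6% against 14.3%), with the muscle sum by 7 (14.3% against 16.3%), with the macrophage sum by 5 (10.2% against 2.97%) and with the remaining 6 sums by 0 to 4. A correlation of -0.6 or lower was reached with the erythroid sum by 24 members (49.0% against 21.0%) and with the neutrophil and marrow sum by 23 (46.9% against 16.2%), with the B lineage sum by 9 (18.4% against 9.07%) and with each other sum by 0 to 3. Members and sums share the library and its scaling.

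Single members correlated with different marker sums, and some with more than 1. Whether a member followed 1 tissue rather than another was not tested. The co-receptor Tgfbr3 followed the fibroblast sum most closely (r = 0.954, rho = 0.959, permutation p adjusted 0.000535 and 0.00118), and r was 0.928 without the 2 joints farthest from the median. Fstl1 followed the same sum (r = 0.892, rho = 0.902, permutation p adjusted 0.000535 and 0.00136; 0.886 without 2 joints). Id3 followed the bone sum (r = 0.899, rho = 0.895, permutation p adjusted 0.000535 and 0.00173; 0.859). Acvr1b, an activin type I receptor, followed the muscle sum (r = 0.905, rho = 0.881, permutation p adjusted 0.000535 and 0.00118; 0.874), and Tgfb1 ran against it (r = -0.858, rho = -0.83, permutation p adjusted 0.0011 and 0.00205; -0.777). Bmpr1a ran against the erythroid sum (r = -0.897, rho = -0.907, permutation p adjusted 0.00084 and 0.00118; -0.884). Of the 6 members called in STING-MSC against control joints, Inhbb gave r = 0.763 with the fibroblast sum (rho = 0.866, permutation p adjusted 0.000535 and 0.00118; 0.806) and 0.755 with the bone sum (rho = 0.792, permutation p adjusted 0.0158 and 0.00845; 0.671). Bmp1 gave 0.77 with the fibroblast sum (rho = 0.854, permutation p adjusted 0.000535 and 0.00136; 0.801) and 0.893 with the bone sum (rho = 0.875, permutation p adjusted 0.0011 and 0.0022; 0.853). Smad1 gave 0.666 with the fibroblast sum (rho = 0.82, permutation p adjusted 0.00392 and 0.00147; 0.758) and 0.799 with the bone sum (rho = 0.756, permutation p adjusted 0.012 and 0.0187; 0.728). With the fibroblast sum Tgfb3 gave 0.792 (rho = 0.871, permutation p adjusted 0.00084 and 0.00131; 0.824) and Tgfb2 0.719 (rho = 0.783, permutation p adjusted 0.0158 and 0.00678; 0.757). With the bone sum neither passed for both r and rho, and Tgfb3 gave 0.564 (rho = 0.556, permutation p adjusted 0.0542 and 0.0688; 0.482) and Tgfb2 0.592 (rho = 0.574, permutation p adjusted 0.0365 and 0.0513; 0.499). Gdf5 passed for both with neither sum, at r = 0.449 with the fibroblast sum (rho = 0.454, permutation p adjusted 0.368 and 0.158; 0.524) and 0.584 with the bone sum (rho = 0.571, permutation p adjusted 0.0431 and 0.0715; 0.47).

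**Figure D4:**
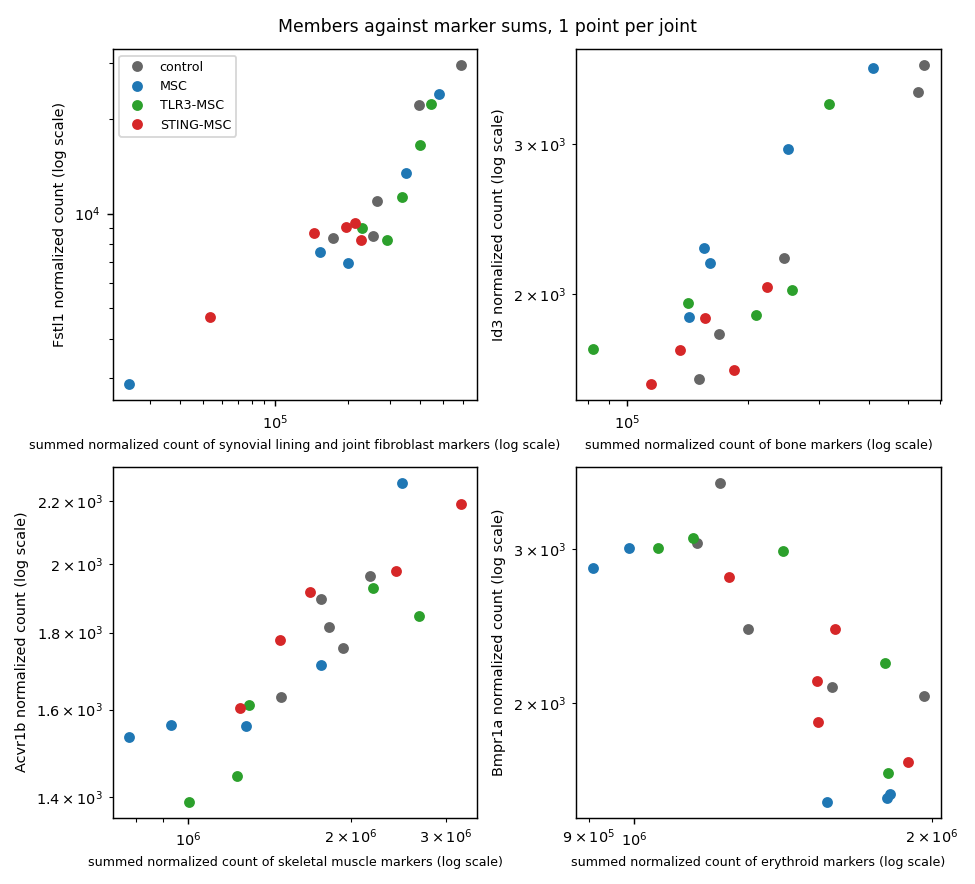
Normalized counts of Fstl1, Id3, Acvr1b and Bmpr1a (vertical axes, log scale) against the summed normalized count of markers of joint fibroblasts, bone, skeletal muscle and erythroid cells (horizontal axes, log scale), 1 point per joint, coloured by group. The points rise together in the first 3 panels and fall in the last, with within-group r of 0.892, 0.899, 0.905 and -0.897.

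Pairs of a target and its partner were compared over the 20 joints with group means subtracted, 8 pairs in all. Id1 followed Id3 (r = 0.74, permutation p adjusted 0.00936, rho = 0.574, adjusted 0.0576; r = 0.65 without 2 joints) and the inhibitory Smad7, itself a target (r = 0.674, permutation p adjusted 0.00936, rho = 0.582, adjusted 0.0576; r = 0.598 without 2 joints). Only Pearson's r held after adjustment in both pairs. Neither ligand compared with Id1 passed the adjusted threshold, with r = 0.403 for Bmp2 (permutation p adjusted 0.104, rho = 0.214, adjusted 0.443; r = 0.358 without 2 joints) and r = -0.108 for Bmp4 (permutation p adjusted 0.64, rho = -0.233, adjusted 0.428; r = -0.0861). Id1 with Id2 gave r = 0.414 (permutation p adjusted 0.0932, rho = 0.377, adjusted 0.187; r = 0.356) and Id1 with Smad6 r = 0.511 (permutation p adjusted 0.0801, rho = 0.48, adjusted 0.0989; r = 0.483). Inhba with the activin antagonist Fstl3 gave r = 0.607 (permutation p adjusted 0.0691, rho = 0.546, adjusted 0.0989), which was 0.38 without 2 joints and so rested on them. Tgfb1 and Tgfbi, ligand and induced protein, gave r = 0.126 (permutation p adjusted 0.64, rho = 0.0722, adjusted 0.768; r = 0.175).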

How the data were processed

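RNA from 20 knee joints was sequenced. The authors aligned the reads with STAR 2.7.3a to GRCm39, counted them with HTSeq, and deposited 1 table of normalized counts, a signal obtained by dividing counts by the median-ratio size factor of each joint. Whether counting used strand, and the filter behind the 14793 genes, are not given in the sources used here. Between 99.84% and 99.92% of values were whole multiples of 1 read within 0.1 read, so whole reads were recovered for edgeR and DESeq2, run only as alternatives.

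Groups and replicate numbers came from the sample titles. limma 3.58.1 (trend) in R 4.3.3 was fitted to log2(normalized count + 1) for 4 groups with no block; pseudocounts, minimum mean, quantile normalization, edgeR 4.0.16, DESeq2 1.42.0, a replicate block and leaving out joints were the alternatives, and leaving out MSC replicate 5 and TLR3-MSC replicate 4 together was added after seeing the data. Fits were tested on simulated data. Single members were also tested by an exact two-sided permutation test. Members were named where called, where groups did not overlap, or for their role. The members and all lists were chosen with earlier results of these data known. The replicates are separate mice. Promoter windows came from RefSeq. Python 3.11.15 with scipy 1.17.1 was used.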

Additional observations from a re-analysis of the deposited data

Results flagged for a closer look

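Each member was examined in each group for a joint whose gap to its nearest neighbour exceeded 0.71 of the range of the 5 joints, Dixon's 95% limit. Of 196 groups 11 held such a joint, and chance gives about 1 in 20. STING-MSC replicate 5 was low for 3 members, with Tgfbr2 at 4630 (others 5660 to 5970), Bmp2 at 281 (399 to 459) and Fstl1 at 4700 (8240 to 9340). MSC replicate 5 was high for Acvr1b at 2260 (1530 to 1710) and low for Id2 at 1420 (1920 to 1990). Bmp7 was low in control replicate 5 at 34.0 (87.9 to 128) and in TLR3-MSC replicate 2 at 42.0 (84.5 to 105). Bmp5 was high in MSC replicate 1 at 119 (91.5 to 98.5), Smad9 low in MSC replicate 4 at 20.6 (77.6 to 124), Id1 high in MSC replicate 2 at 1020 (676 to 748) and Id3 high in TLR3-MSC replicate 5 at 3350 (1720 to 2020). Leaving out STING-MSC replicate 5 moved the count of members called in STING-MSC against control joints from 6 to 2.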

How the results depend on the processing

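The differences of Inhbb and Smad1 between STING-MSC and control joints kept their direction and an unadjusted p of at most 0.05 under all 19 alternatives, in limma, edgeR or DESeq2 as each used. The alternative without a minimum mean repeats the main fit, since the minimum removed 0 genes. Leaving out MSC replicate 5 and TLR3-MSC replicate 4 together removes no STING-MSC or control joint, so it cannot move these 2 estimates. The count of called members was 4 for MSC against control (1 to 9 with 1 joint left out: 1 without control replicate 3 or MSC replicate 1, 2 without control replicate 2 or 4, 9 without MSC replicate 2), 1 for TLR3-MSC against control (0 to 2: 2 without control replicate 4, 0 without control replicate 2, 3 or 5 or TLR3-MSC replicate 1, 4 or 5), 6 for STING-MSC against control (2 to 10: 2 without STING-MSC replicate 5, 3 without control replicate 2, 3 or 4, 10 without control replicate 5), 1 for TLR3-MSC against MSC (0 to 4: 4 without MSC replicate 2 or 5), 2 for STING-MSC against MSC (1 to 5: 5 without MSC replicate 5), 2 for STING-MSC against TLR3-MSC (0 to 3: 0 without TLR3-MSC replicate 5) and 2 for the F test (1 to 6: 6 without MSC replicate 2). Other counts that moved were STING-MSC against control under edgeR (10, against 13.3% of all genes) and DESeq2 (10, against 15.2%), TLR3-MSC against MSC with a pseudocount of 5, a minimum mean of 20, quantile normalization, edgeR and DESeq2 (0 each), STING-MSC against TLR3-MSC under DESeq2 (4), and the F test with a pseudocount of 5, a minimum mean of 20 or quantile normalization (1 each). STING-MSC against control also gave 5 with a pseudocount of 0.5 (12.2% of all genes) or a minimum mean of 20 (12.4%). Under quantile normalization it gave 7 (12.0%). MSC against control gave 3 with a minimum mean of 20 (8.6%), in edgeR (8.85%) and in DESeq2 (9.71%). STING-MSC against MSC gave 3 in edgeR (4.85%), and the F test 3 in DESeq2 (9.75%). Without MSC replicate 5 and TLR3-MSC replicate 4 together, TLR3-MSC against MSC gave 5 (7.3% of all genes), STING-MSC against MSC 4 (6.29%) and MSC against control 5 (12.6%). With 1 joint left out the share of all genes moved as well, to 16.7% where MSC against control gave 9. For STING-MSC against control it was 14.2% at the count of 10 and 6.92% at the count of 2. Where TLR3-MSC against MSC gave 4, it was 9.98% without MSC replicate 2 and 6.13% without MSC replicate 5. It was 6.66% where STING-MSC against MSC gave 5 and 11.2% where the F test gave 6. The DESeq2 count of 4 for STING-MSC against TLR3-MSC stood beside 4.58% of all genes. A minimum mean of 20 removes Gdf5 from the test; the cause of the other moves was not tested.

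Estimates near 0 in STING-MSC against control joints changed sign, at no p under 0.05: Smad3 (0.04) with 1 joint left out, where it ran from -0.0535 to 0.1228 (-0.0424 without control replicate 5, -0.0161 without STING-MSC replicate 1), Smad7 (-0.02) to 0.0009 under quantile normalization and with 1 joint left out, where it ran from -0.0819 to 0.0529, and Nog (0.03) to -0.0113 in edgeR, -0.0034 in DESeq2 and with 1 joint left out, where it ran from -0.0818 to 0.1555. Without subtraction of group means Inhba and Fstl3 gave r = 0.6 and passed the adjusted threshold. With the replicate number as a replicate block the count for TLR3-MSC against control was 0. Joints with the same number came from different mice and the mean correlation of their deviations ran from -0.144 to 0.108 over the 6 comparisons, so the numbers are no pairing.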
